A study of Homo sapiens with 10 samples.

Results

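The activator protein 1 (AP-1) family was followed in human microglia (hMG) taken back from the mouse brain. Its 9 members, picked by name, were the FOS subunits FOS, FOSB, FOSL1 and FOSL2, the JUN subunits JUN, JUNB and JUND, and their partners ATF3 and MAFF. They were read among the 36591 human genes of a table that also listed 32245 mouse genes. The hMG were made from the established human embryonic stem cell line H9, placed in the brain at postnatal day 4 and sorted at 6 months of age as live cells positive for CD11b and human CD45. All hosts lacked Rag2 and carried a human CSF1 knock-in (Rag2KO-hCSF1KI), so they had no mature B and T cells but retained natural killer cells, and all grafts came from 1 line. The 5 AppHu libraries, whose labels read AppKI, came from hosts with a humanized amyloid-β sequence and no pathological mutation. The 5 AppSAA libraries came from hosts with the same humanized sequence and the Swedish, Arctic and Austrian mutations, which form amyloid plaques. The question was how hMG gene expression differs between brains with and without amyloid pathology. The labels number the libraries 3, 4, 6, 7 and 8 in AppHu and 4, 5, 6, 7 and 8 in AppSAA, and do not say what a number stands for, so the p-values measure only the spread between these libraries.

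AP-1 is a pair of basic leucine zipper proteins that binds DNA as a dimer. JUN subunits can pair with themselves or with a FOS subunit, whereas FOS subunits need a JUN partner. FOS, FOSB, JUN, JUNB and ATF3 are immediate early genes, which cells transcribe within minutes of a cytokine, growth factor or stress signal without making new protein first. In microglia these genes respond to inflammatory stimuli and also to tissue dissociation, and all libraries here came from enzymatically dissociated brain.

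The promoters of 4 members are shown because FOS was by far the most abundant member and ATF3, FOSB and JUN had the largest fold changes among the 7 members with enough counts to be tested. Each stretch runs from 130 bases before to 20 bases after the RefSeq start on GRCh38.p14, read 5′ to 3′ on the strand of the gene. Capitals mark TGACGT (the core of the cAMP response element), TGACATCA (the variant element known from the JUN promoter) and TATAAA (the TATA box). The windows lie at chr14:75278698-75278847 for FOS (forward strand), chr19:45467866-45468015 for FOSB (forward), chr1:58784028-58784177 for JUN (reverse) and chr1:212565277-212565426 for ATF3 (forward).
FOS: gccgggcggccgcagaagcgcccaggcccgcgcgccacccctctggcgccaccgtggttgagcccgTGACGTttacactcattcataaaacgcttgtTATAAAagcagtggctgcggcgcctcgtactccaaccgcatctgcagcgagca
FOSB: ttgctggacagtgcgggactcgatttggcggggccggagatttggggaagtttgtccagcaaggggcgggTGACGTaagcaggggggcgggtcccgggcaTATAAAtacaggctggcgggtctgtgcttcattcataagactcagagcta
JUN: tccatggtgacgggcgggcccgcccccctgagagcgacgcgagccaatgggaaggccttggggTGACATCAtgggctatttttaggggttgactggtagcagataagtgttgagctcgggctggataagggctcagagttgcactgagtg
ATF3: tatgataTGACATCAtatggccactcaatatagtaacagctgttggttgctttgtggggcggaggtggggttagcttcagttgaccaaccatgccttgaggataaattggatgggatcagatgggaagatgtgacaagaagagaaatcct
FOS and FOSB shared the same layout, with TGACGT starting 64 and 60 bases and TATAAA starting 33 and 30 bases before the start. JUN and ATF3 shared TGACATCA, starting 67 and 123 bases before it. For ATF3 more than 1 start was held, and the stretch printed belongs to a start near the upstream end of the gene. Among the ATF3 starts searched, TGACATCA was found at this start only.

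Windows of 250 bases before to 50 bases after the start were held for 8 of the 9 members (FOSL1 had none) and for 35116 starts in all, and both strands were searched. TGACGT stood in 5 of the 8 members (FOS, FOSB, FOSL2, JUND and MAFF) and in 7.98% of all windows. The full palindrome TGACGTCA, which contains TGACGT on each strand, stood in JUND and MAFF and in 1.85% of all windows. TGACATCA was found in 2 members and 2.61% of windows. TATAAA was found in 4 members (FOS, FOSB, JUNB and a start of ATF3 other than the one printed) and 11.5% of windows. A member was counted if any of its starts held the motif, whereas the percentages count each start singly, so these shares are not of like units. The AP-1 element itself, TGACTCA, stood in FOSL2 and in 4.95% of windows. The CArG box bound by serum response factor was found in 0 of the 8 members and 1.29% of windows, which says only that it is not within this window. These are matches of letters and carry no measurement of binding.

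In GENCODE 44 on GRCh38, FOS (ENSG00000170345.10) lies on the forward strand at chr14:75278826-75282230 and has 4 exons. FOSB lies at chr19:45467995-45475179 and ATF3 at chr1:212565334-212620777, both on the forward strand and with 4 exons each. JUN (chr1:58776845-58784048, reverse strand), JUNB (chr19:12791486-12793315, forward) and JUND (chr19:18279694-18281622, reverse) each consist of 1 exon. Of the exon bases of JUNB, 259 (14.2%) are shared with HOOK2 on the opposite strand, and of those of MAFF 326 (5.81%) with PLA2G6. Whether reads were counted by strand was not given in the sources used here. HOOK2 varied 1.8-fold between libraries (18.7 to 33.7 CPM) and PLA2G6 1.2-fold.

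Total counts per library were 29414003 to 39641854 in AppHu and 25040739 to 31615544 in AppSAA, higher in AppHu (two-sided exact permutation test of the means, p = 0.0397). Mouse genes took 3.12% to 4.97% of the counts in AppHu and 2.12% to 3.85% in AppSAA (exact permutation p = 0.119). The labelled cell type was checked on its markers. The 10 microglial markers summed to 40941 to 46353 CPM in AppHu and 34987 to 44626 CPM in AppSAA, and all 10 had lower values in AppSAA, 3 of them at an unadjusted edgeR p under 0.05 and 0 called. The 6 markers of CNS-associated macrophages, all detected, summed to 3487 to 4069.9 CPM and 2927 to 3785 CPM, with 5 of 6 lower in AppSAA, 2 of them at an unadjusted edgeR p under 0.05, 0 called in edgeR, 1 called in DESeq2 and 1 without overlap of the groups. Over all human genes tested, 9.8% had an unadjusted edgeR p under 0.05 in either direction, 0.0776% were called in edgeR and 1.39% in DESeq2, and 2.49% had groups without overlap. The part of these and the following markers in the results below was not tested. The 5 astrocyte markers summed to at most 0.286 CPM, the 6 neuronal markers to at most 2.26 CPM and the 6 T and NK cell markers to at most 4.01 CPM, with AQP4, ALDH1L1, GJA1, STMN2 and NEFL at 0 in all libraries. The 6 monocyte and neutrophil markers summed to 986 to 1104 CPM and 1009 to 1083 CPM, with FCN1 at 0 in all 10 libraries. Of these, 1 was higher in AppSAA at an unadjusted edgeR p under 0.05 (S100A8, log2 2.72, edgeR adjusted p = 0.308). The 5 endothelial markers summed to 105 to 162 CPM with CLDN5 and CDH5 at 0. Of the endothelial markers 1 was lower in AppSAA at an unadjusted edgeR p under 0.05 (PECAM1, log2 -0.23, adjusted p = 0.469).

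FOS made up most of the AP-1 message. CPM of a human gene set its count relative to the library's total over the human genes tested, after scaling between libraries. On this scale FOS ranked 47 of the 15455 human genes tested. FOS held 81.4% to 92.9% of all counts on the 9 members in AppHu and 83.1% to 92% in AppSAA. Levels of different genes were compared per kilobase of exon, taking all annotated exon bases of a gene together. For JUNB (1830 bases) and JUND (1929) the canonical transcript has the same length. It is shorter for the other members, such as FOS (2104 against 3186), FOSB (3775 against 5553), JUN (3257 against 3624) and ATF3 (1940 against 3998). The order and ratios per kilobase therefore rest on this choice, and canonical lengths were not tried. By the median over the 10 libraries the order was FOS (429 CPM per kb), JUNB (31.4), JUND (15.3), JUN (9.53), FOSB (7.66), ATF3 (0.944), FOSL1 (0.374), MAFF (0.0228) and FOSL2 (0.0094). FOS was above JUNB in 10 of 10 libraries, with a median ratio of 12.2, and FOSB was above ATF3 in 10 of 10, with a median ratio of 7.85. Within the middle of the order the neighbours overlapped. JUNB exceeded JUND in 8 of 10 libraries, JUND exceeded JUN in 9 of 10 and JUN exceeded FOSB in 7 of 10. At the low end ATF3 exceeded FOSL1 in 8 of 10 libraries and MAFF exceeded FOSL2 in 6 of 10.

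FOS and FOSB had higher means in AppSAA and did not pass the test. FOS, the classic immediate early partner of JUN, was read at 1167, 1150.3, 1171, 1301 and 1652 CPM in AppHu libraries 3, 4, 6, 7 and 8 and at 975, 1431, 2058, 2206 and 1818 CPM in AppSAA libraries 4, 5, 6, 7 and 8. AppSAA libraries 6, 7 and 8 were above every AppHu library, but AppSAA library 4 was the lowest of all 10, so the groups overlapped. The mean was 1288 ± 212 CPM (SD, n = 5) in AppHu and 1698 ± 499 CPM (SD, n = 5) in AppSAA. The log2 fold change of FOS was 0.40 (standard error 0.187, adjusted p = 0.522, quasi-likelihood test of edgeR, Benjamini-Hochberg adjusted over all human genes tested).

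FOSB, a FOS subunit known for its stable splice form in stimulated neurons, stood much lower than FOS. Its levels were 28.5, 22.2, 25.3, 41.9 and 62.1 CPM in AppHu and 30.1, 43.2, 70.8, 74.4 and 82.7 CPM in AppSAA, in the order of libraries given above. Again AppSAA libraries 6, 7 and 8 were above all AppHu libraries and AppSAA library 4 lay within the AppHu range. The log2 fold change was 0.74 (standard error 0.313, edgeR adjusted p = 0.459). Per kilobase of exon, FOSB was 1.09% to 2.11% of the sum of FOS and FOSB in AppHu and 1.7% to 2.54% in AppSAA.

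The remaining FOS subunits, both expressed at higher levels after sustained stimulation in other cell types, were scarce. FOSL1 had 10 to 39 counts per library, or 0.54 to 1.32 CPM in AppHu and 0.38 to 1.25 CPM in AppSAA. It was the tested member with a negative fold change (log2 -0.28, standard error 0.356, edgeR adjusted p = 0.869). With 1 library left out, the log2 fold change of FOSL1 ran from -0.56 to -0.09. FOSL2 had 0, 0, 1, 1 and 3 counts in AppHu and 4, 3, 4, 1 and 12 counts in AppSAA, 5 against 24 in sum. It did not reach the filter of 10 counts in 6 libraries. A count of 0 allows up to 3 counts, which is 0.108 CPM in AppHu library 3 and 0.0779 CPM in AppHu library 4 (counting error only).

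Among the JUN subunits, JUN and JUND had higher means in AppSAA without passing the test, and JUNB had the widest spread between libraries. JUN, the strongest transactivator of the 3 and a target of JNK, was read at 26.8, 19.7, 22.7, 41.6 and 38.9 CPM in AppHu and at 30.2, 25.3, 50.2, 74.6 and 51.3 CPM in AppSAA. AppSAA libraries 6, 7 and 8 were above all AppHu libraries, as for FOS and FOSB. The log2 fold change of JUN was 0.63 (standard error 0.286, edgeR adjusted p = 0.495), and 0.39 without AppSAA library 7.

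JUND, the subunit that most resting cells express constitutively, was read at 22.8, 24.8, 21, 35.9 and 25.3 CPM in AppHu and at 26.5, 32.4, 37.1, 35.1 and 43.2 CPM in AppSAA. All 5 AppSAA libraries were above the AppHu mean of 25.9 ± 5.81 CPM (SD, n = 5), and AppHu library 7 was the one AppHu library inside the AppSAA range. JUND had the smallest standard error of the 7 members tested, with a log2 fold change of 0.43 (standard error 0.155, edgeR adjusted p = 0.361).

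JUNB, an immediate early gene whose product is a weaker activator than JUN, was read at 49.9, 59.8, 18.4, 174 and 122 CPM in AppHu and at 39.2, 20.8, 55.1, 249.7 and 131 CPM in AppSAA. Both groups contained very low and very high libraries, and library 7 was the highest in each. The group means were 84.8 ± 62.4 CPM (SD, n = 5) in AppHu and 99.2 ± 94 CPM (SD, n = 5) in AppSAA. The log2 fold change was 0.23 (standard error 0.651, edgeR adjusted p = 0.955), and its sign turned when AppHu library 6 (log2 -0.03) or AppSAA library 7 (log2 -0.46) was left out. No direction can therefore be given for JUNB.

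ATF3, a stress-induced partner that often acts as a repressor, had the largest fold change of the members tested and was scarce. Its counts were 110, 85, 46, 119 and 67 in AppHu and 154, 41, 111, 442 and 251 in AppSAA. This is 3.96, 2.21, 1.29, 3.59 and 2.28 CPM in AppHu and 5.31, 1.56, 4.66, 14.5 and 8.15 CPM in AppSAA. AppSAA libraries 4, 6, 7 and 8 were above every AppHu library, whereas AppSAA library 5 was below 4 of them. The log2 fold change was 1.37 (standard error 0.473, edgeR adjusted p = 0.329) and fell to 0.89 without AppSAA library 7. MAFF, a small MAF protein without a transactivation domain, had 0 to 8 counts in AppHu and 2 to 11 counts in AppSAA and was not tested in the filtered fit.

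**Figure D1:**
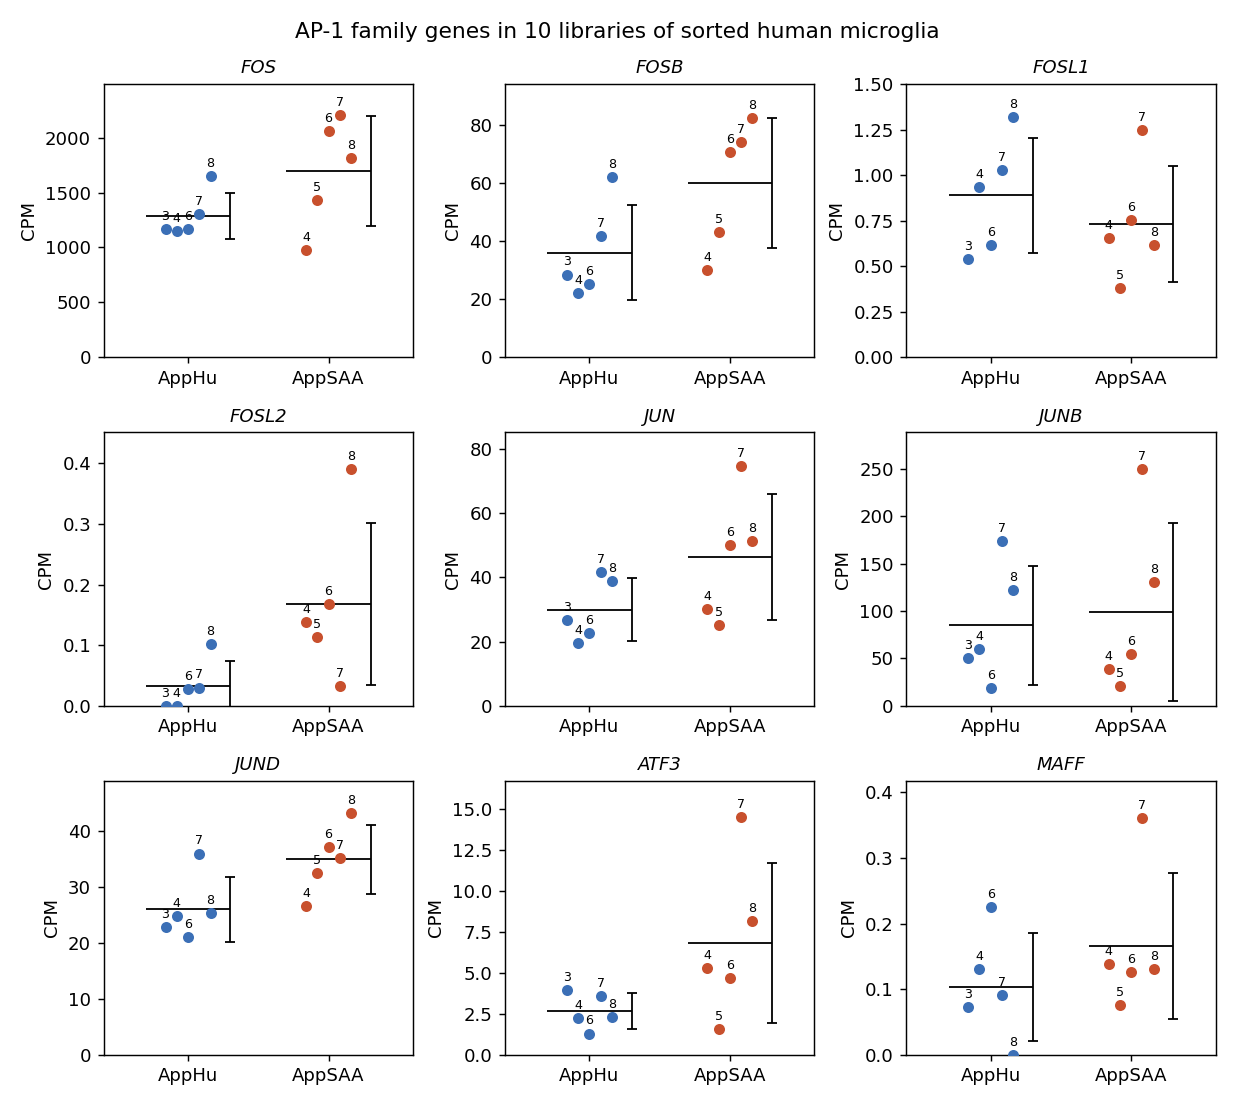
Level of each of the 9 members in CPM on a linear axis from 0, with 1 point per library labelled by its replicate number, a horizontal bar at the group mean and an error bar of 1 SD (n = 5). The groups overlap for all 9 members, and AppSAA library 7 is the highest of the 10 libraries for FOS, JUN, JUNB, ATF3 and MAFF.

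None of the 7 members tested passed the threshold of 0.05 after adjustment in edgeR, in a comparison that called 12 of 15455 human genes (0.0776%), or in DESeq2, which called 1.39%. The adjusted p of the 7 ran from 0.329 to 0.955 in edgeR and from 0.216 to 0.972 in DESeq2, and with standard errors of 0.155 to 0.651 a missed threshold does not show that the groups were alike. At an unadjusted edgeR p under 0.05, 4 of the 7 (FOSB, JUN, JUND and ATF3) were higher in AppSAA, against 5.99% of all genes tested for this direction and 9.8% for both. FOS lay just above this level. This count depended on single libraries. It was 1 without AppSAA library 7 (JUND) and 1 without AppSAA library 8 (ATF3), it was 2 (JUND and ATF3) without AppHu library 3, 4 or 6 or AppSAA library 6, and it was 4 or 5 without any of the other 4. In DESeq2 it was 3 (FOS, JUND and ATF3), and with the library total as a covariate 1 (ATF3). With the mouse share of counts as a covariate the count was 3 (FOS, FOSB and JUND). It was 5 (FOS added to the 4) in limma-voom with sample quality weights, with upper-quartile scaling and without a filter. A fold change above 0 was found for 6 of the 7 members and for 50.5% of all genes. JUNB is among the 6, although its sign turned without AppHu library 6 (log2 -0.03) or AppSAA library 7 (log2 -0.46). The median log2 fold change was 0.43 over the 7 members and 0.0018 over all genes tested. The groups did not overlap for 0 of the 7 members and for 2.49% of all genes. Since the members respond to shared signals, they are not independent of each other. In bulk RNA, fewer expressing cells and less RNA per cell cannot be told apart.

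**Figure D2:**
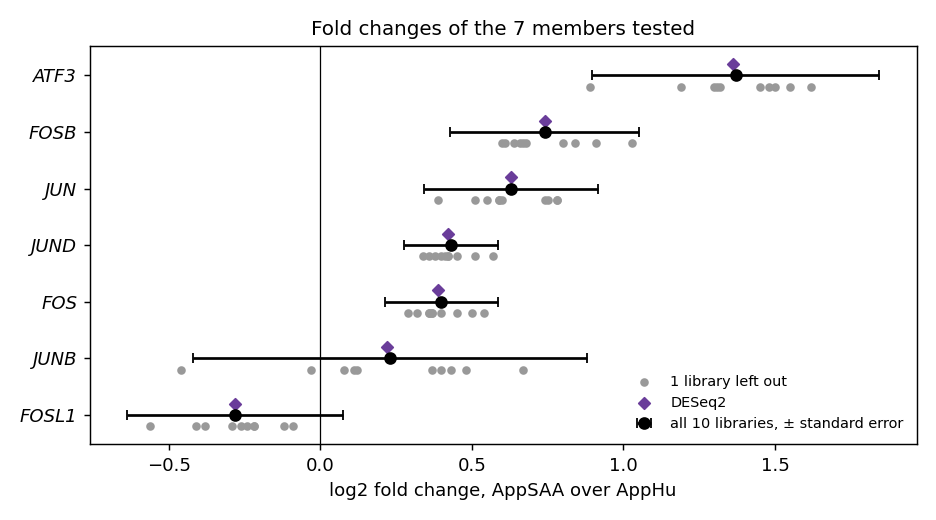
Log2 fold change of AppSAA over AppHu for the 7 members tested, with the edgeR estimate and its standard error (black), the DESeq2 estimate (diamond) and the 10 estimates with 1 library left out (grey). The left-out estimates of JUNB run from -0.46 to 0.67 and cross 0, those of FOSL1 stay below 0 and those of the other 5 members stay above 0.

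The 5 members with a mean of at least 10 CPM varied between libraries of the same group more than most genes did. Over the 8695 human genes at this level, the SD of log2(CPM + 1) within groups had a median of 0.139. JUNB had the largest SD of all these genes, 1.32, and differed 13.5-fold between its lowest and highest library. The next genes in this order, FTH1 (ferritin heavy chain, SD 1.31) and CYBA (a subunit of the phagocyte NADPH oxidase, SD 1.27), are not immediate early genes, and like JUNB both were highest in AppSAA library 7. The gene after them, IFI27 (an interferon-induced gene, SD 1.25), was highest in AppSAA library 4. For FOSB the SD was 0.599, with 206 genes above it, for JUN 0.543 (287 genes above), for FOS 0.372 (647 above) and for JUND 0.269 (1184 above).

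The libraries that were high in one member tended to be high in the others. Library 7 was above its group mean for 7 of 7 members in AppHu and for 7 of 7 in AppSAA, and library 8 for 5 and 6 of 7. AppHu library 6 and AppSAA libraries 4 and 5 were above their group mean for 0 of 7 members. The order was not the same for all members, since AppSAA library 4 was the lowest of its group for FOS, FOSB and JUND while AppSAA library 5 was the lowest for FOSL1, JUN, JUNB and ATF3. With both libraries numbered 7 left out, 0 members were called, in a fit that called 2 human genes in all. JUNB was then at a log2 fold change of -0.02.

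The same libraries stood apart for many other genes. A principal component of log2(CPM + 1) centred within groups, computed on 8690 genes without the members, held 53.2% of the within-group variance and the next one 12%. AppSAA library 5 (-0.69) and AppHu library 6 (-0.44) lay at one end and AppSAA library 7 (0.42) and AppHu library 7 (0.28) at the other. JUNB followed this order in AppHu for all 5 libraries, and in AppSAA with libraries 4 and 6 exchanged. Across genes, which are not independent replicates, the deviation of a library correlated only weakly with GC content (r of -0.19 for AppSAA library 5 to 0.15 for AppSAA library 7). The GC content of the canonical transcript was 64.9% for JUNB and 69.9% for JUND, above 97.1% and 99.9% of the tested genes with a value, and 50.4% to 58.7% for the other 5 members tested. After a GC correction of each library, 0 members were called, in a fit that called 19 human genes in all. JUND was then at a log2 fold change of 0.53 (edgeR adjusted p = 0.184). What sets these libraries apart was not tested.

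**Figure D3:**
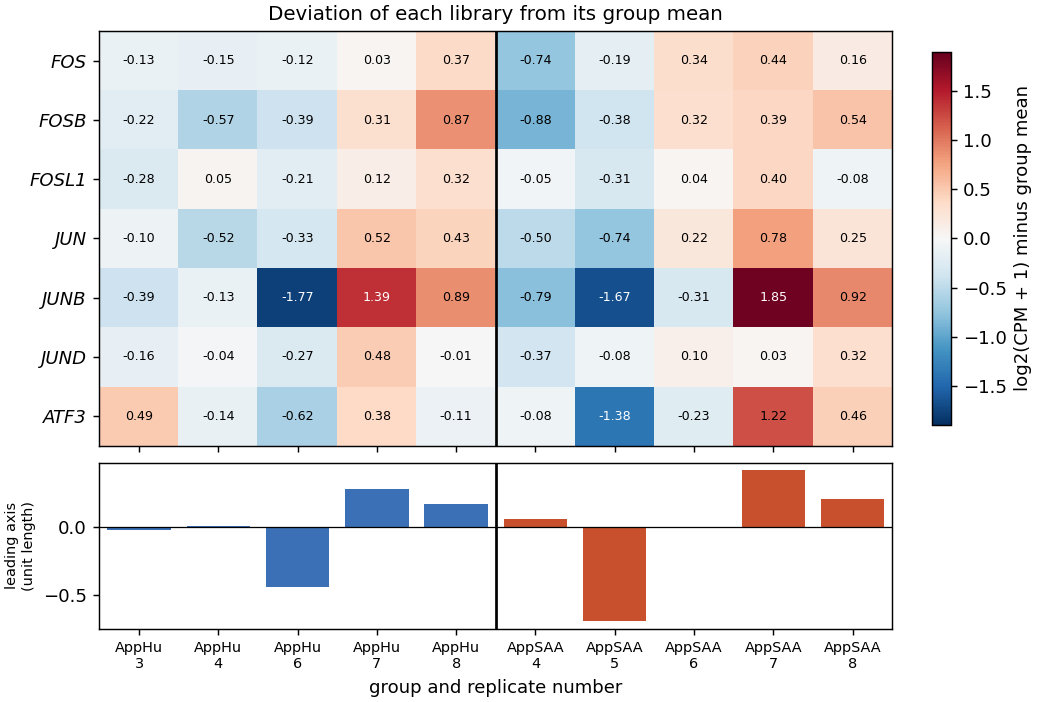
Upper panel, deviation of log2(CPM + 1) from the group mean for the 7 members tested (rows) in each library (columns). Lower panel, position of each library on the leading principal component of 8690 genes without the members. JUNB runs from -1.77 in AppHu library 6 to 1.85 in AppSAA library 7, in nearly the same order as the lower panel, while FOS and FOSB are lowest in AppSAA library 4.

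The balance of FOS to JUN subunits did not separate the groups. The sum of FOS, FOSB, FOSL1 and FOSL2 per kilobase was 3.33 to 13.7 times that of JUN, JUNB and JUND in AppHu and 4.03 to 13 times in AppSAA, with a median of 7.17 in both. The ratio was lowest in library 7 of each group (3.33 and 4.03) and highest in AppHu library 6 and AppSAA library 5, in which JUNB was low. JUNB made up 37% to 75.9% of the JUN sum in AppHu and 32.3% to 77.9% in AppSAA. These are ratios of RNA and not of protein, and their size rests on the exon lengths chosen above.

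The rest of the pathway was read on lists of genes. Of 25 other immediate early genes 22 were tested, and all 22 had a higher value in AppSAA (50.5% of all genes), 13 of them at an unadjusted edgeR p under 0.05 (5.99% of all genes). The median log2 fold change was 0.54, 4 genes were called in DESeq2 (1.39% of all genes) and the groups did not overlap for 3 (2.49% of all genes). EGR1 and EGR3, zinc finger factors induced together with FOS, passed the test in this list. EGR1 rose from 5.49 ± 1.14 to 15.4 ± 5.01 CPM (SD, n = 5 each; log2 fold change 1.48, standard error 0.23, edgeR adjusted p = 0.0331) and EGR3 from 6.27 ± 0.539 to 14.2 ± 4.26 CPM (log2 fold change 1.18, standard error 0.183, edgeR adjusted p = 0.0331). Their groups did not overlap, unlike those of any AP-1 member. The EGR1 call was lost in 11 and the EGR3 call in 10 of 22 alternatives, with adjusted p up to 0.157 and 0.155. Over these alternatives the log2 fold change ran from 1.37 to 1.71 for EGR1 and from 0.97 to 1.33 for EGR3. By library, the mean of these 22 genes was above the group mean in AppHu libraries 7 and 8 and AppSAA libraries 6, 7 and 8, where most AP-1 members were high too.

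Of 21 textbook AP-1 targets 16 were tested, and their log2 fold changes had a median of 0.29, with 5 higher and 0 lower at an unadjusted edgeR p under 0.05 (5.99% of all genes were higher at this level). IL1B, the pro-inflammatory cytokine, was called and rose from 46.7 ± 4.27 to 77.4 ± 11.5 CPM (SD, n = 5 each; log2 fold change 0.73, standard error 0.104, edgeR adjusted p = 0.0331). The IL1B call was lost in 9 of 22 alternatives, with adjusted p up to 0.174, while its log2 fold change ran from 0.66 to 0.8. CD44, the hyaluronan receptor, had 3.93 ± 1.38 and 13.1 ± 4.85 CPM (log2 fold change 1.73, standard error 0.296, edgeR adjusted p = 0.0548; DESeq2 adjusted p = 3.21e-06). These genes have many regulators besides AP-1, and AP-1 binding was not measured.

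The genes around AP-1 in the pathway had median fold changes near 0. Of 27 other basic leucine zipper factors 26 were tested, with a median log2 fold change of 0.03 and 0 called (0.0776% of all genes). The smallest p in this list was that of ATF7, a stress-kinase-regulated factor (log2 0.16, edgeR adjusted p = 0.48), followed by MAF, a macrophage identity factor (log2 -0.14, edgeR adjusted p = 0.619). The 13 factors that drive FOS and JUN transcription, such as serum response factor and its partners, had a median of 0.02. Of these, 0 were called (0.0776% of all genes). ELK3, a partner of serum response factor, was at log2 -0.17 (edgeR adjusted p = 0.437) and ELK4 at 0.13 (adjusted p = 0.634). Of 25 genes of the MAP kinase cascade 24 were tested, with a median of 0.00 and 0 called (0.0776% of all genes). MAPK9, which encodes a JNK, was at log2 0.23 (edgeR adjusted p = 0.489), and MAPK14, which encodes a p38 kinase, at 0.17 (adjusted p = 0.639). Each list held 1 gene at an unadjusted edgeR p under 0.05 (9.8% of all genes in either direction). ATF7 and MAPK9 were higher in AppSAA at this level and ELK3 was lower. RNA levels do not show the phosphorylation by which these kinases and factors act.

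The 12 heat shock genes, read because they also respond to cell stress, centred on a log2 fold change of 0.15 (median). Of these 8 had higher values in AppSAA (50.5% of all genes), 3 of them at an unadjusted edgeR p under 0.05 (5.99% of all genes), and 0 were called (0.0776%). HSP90AA1, a cytosolic chaperone, was at 856 ± 71.2 and 1021 ± 49.1 CPM (log2 0.25, edgeR adjusted p = 0.157) and HSPE1, a mitochondrial one, at 172 ± 42.7 and 244 ± 37 CPM (log2 0.51, adjusted p = 0.255). The mean of the 12 genes was highest in library 7 of both groups and lowest of all in AppHu library 6. The part of cell stress in the AP-1 levels was not tested.

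The human genes outside the family whose levels, centred within groups, were most like the mean of the standardized members over the 10 libraries were IL6ST, ZNF174, KLF2, PAQR6 (Pearson's r = 0.97 each) and ZNF287 (0.96). The points share the libraries and their depth, and the genes were taken as the highest of all genes tested. KLF2, a zinc finger factor that is itself an immediate early gene, was at log2 0.78 (standard error 0.368, edgeR adjusted p = 0.528). IL6ST, the shared signalling subunit of the IL-6 receptor family, was at 0.05 (standard error 0.132). PAQR6 was at log2 -0.41, ZNF287 at -0.29 and ZNF174 at -0.06.

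The mouse genes of the same libraries gave a readout from host RNA that went through the same isolation. The mouse rows held 10 microglial markers at 4814 to 9597 CPM of mouse counts in AppHu and 6728 to 15351 CPM in AppSAA, and 5 oligodendrocyte markers at 35536 to 78568 and 14993 to 46084 CPM, so this RNA was a mixture of cell types. The marker levels leaned with the group, but 0 of these markers were called in edgeR or DESeq2 and the sums overlapped. All 4 oligodendrocyte markers tested were lower in AppSAA, 4 of them at an unadjusted edgeR p under 0.05, while all 10 microglial markers (3 at this level) and all 5 astrocyte markers (2 at this level) were higher. Their part in the values of the orthologues was not tested. Of the 9 mouse orthologues 4 were tested (Fos, Jun, Junb and Atf3), and 0 were called in edgeR or at an unadjusted edgeR p under 0.05. Over the 9376 mouse genes tested edgeR called 0 (0%), with 9.36% at an unadjusted p under 0.05, and DESeq2 called 0.128%. Mouse Fos had 0, 4, 11, 38 and 99 counts in AppHu and 29, 61, 48, 12 and 26 counts in AppSAA (log2 fold change 0.93, standard error 0.838, edgeR adjusted p = 0.787). Mouse Atf3 was at log2 1.03 (standard error 0.838, adjusted p = 0.758), mouse Junb at 0.42 (standard error 0.406, adjusted p = 0.802) and mouse Jun at -0.42 (standard error 0.468, adjusted p = 0.836). These values moved with single libraries. With 1 library left out, mouse Fos ran from 0.61 to 1.88, mouse Atf3 from 0.68 to 1.43, mouse Junb from 0.14 to 0.65 and mouse Jun from -0.76 to -0.15. Without AppHu library 8 mouse Fos (1.88, edgeR adjusted p = 0.419) was at an unadjusted p under 0.05. Mouse Junb was lowest, at 14 counts, in AppSAA library 7, the library in which human JUNB was highest. Mouse Jun was highest among the AppSAA libraries in library 7 (95 counts) and lowest in library 5 (10 counts), as human JUN was. Among the other 5, Fosl1 had 0 counts in all libraries, Maff and Fosb at most 3, Fosl2 at most 11 and Jund at most 24. Whether the human and the mouse responses differ was not tested.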

How the data were processed

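Bulk RNA of sorted hMG was sequenced by the authors as single reads after full-length SMART-Seq HT PLUS amplification, without molecular identifiers. Per the submitters' processing notes, STAR 2.7.11a, FastQC 0.11.9 and featureCounts 2.0.1 were used with the mm10 and GRCh38 builds, and the paper gives a combined alignment. The annotation release, strand setting and treatment of reads with several matches were not given in the sources used here. The deposited values are raw counts per gene for human and mouse rows, and human rows were those listed before the first mouse gene. Each of the 10 columns was matched to a library by its name, and groups came from the sample titles.

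Human genes that reached 10 counts in 6 or more of the 10 libraries (15455) were tested with edgeR 4.0.16 in R 4.3.3 (TMM factors, quasi-likelihood fit in legacy mode, no covariates), and adjusted by Benjamini-Hochberg with a threshold of 0.05. Mouse genes (9376) were fitted apart. CPM are these counts after TMM scaling within species, and standard errors were derived from the fold change and the F statistic. DESeq2 1.42.0, limma 3.58.1 voom with sample quality weights, other scalings and filters, covariates, a replicate block and each library left out were alternatives. Scripts were tested on simulated data. Exact permutation tests used scipy 1.17.1 in Python 3.11.15. Pairs of libraries within a group differed beyond sampling noise (chi-square per degree of freedom 12.4 to 81.2 over 20 pairs).

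The members and gene lists were chosen with earlier results of these data known. All members and orthologues were named, and of each other list the called genes and the 2 of smallest p. Of the marker lists the summed level and the markers at 0 were named, and the 5 genes most like the members completed the rule. The human oligodendrocyte markers are not reported here. FTH1, CYBA, IFI27, S100A8, PECAM1, HOOK2 and PLA2G6 were named after their values had been seen. Positions come from GENCODE 44 and promoters from RefSeq, matched by symbol, and may differ from the annotation used for counting. GC values were held for 83.2% of the genes tested. Precision follows from the depth and the 5 libraries a group, and intervals of counts cover counting error only.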

Additional observations from a re-analysis of the deposited data

How the results depend on the processing

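No AP-1 member was called in any alternative other than the replicate block, in which 2 were called. In that fit JUN was at log2 0.75 (adjusted p = 0.0302) and ATF3 at 1.74 (adjusted p = 0.00823), edgeR called 59 human genes in place of 12, mouse Junb turned to -0.05, mouse Atf3 was at 2.12 and mouse Jun at -0.09, and AppHu library 3 and AppSAA library 5, whose numbers occur once, did not inform the group difference. At an unadjusted edgeR p under 0.05, 5 of the 7 members were higher in AppSAA in the replicate block. The labels do not say that a number pairs libraries. Deviations of the 4 same-numbered pairs correlated at r = 0.0648 to 0.313, those of the 21 other pairs at -0.384 to 0.438, and 5 of 8 libraries correlated best with their own number. The count of 12 human genes became 215 in DESeq2, 52 in limma-voom with sample quality weights, 19 with the newer quasi-likelihood mode, 32 without a filter, 1 with the library total as a covariate, 5 with the mouse share as a covariate, and 2 to 34 with 1 library left out. After seeing the data, a GC correction (19) and leaving out both libraries numbered 7 (2) were added. JUNB turned to log2 -0.03 without AppHu library 6, -0.46 without AppSAA library 7 and -0.02 without both libraries 7, and its left-out range was -0.46 to 0.67. The other left-out ranges were 0.29 to 0.54 for FOS, 0.60 to 1.03 for FOSB, -0.56 to -0.09 for FOSL1, 0.39 to 0.78 for JUN, 0.34 to 0.57 for JUND and 0.89 to 1.62 for ATF3. With the mouse share as a covariate FOS was at log2 0.62 and FOSB at 1.14. FOS, FOSB, FOSL1 and JUND kept their sign and stayed uncalled in all 22 alternatives. Without a filter FOSL2 was at log2 2.28 (adjusted p = 0.561) and MAFF at 0.64 (adjusted p = 0.81), on 29 and 42 counts in all. FOSL1, FOSL2, MAFF and the mouse genes rest on few counts. The causes were not tested.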
